A study of Homo sapiens with 4 samples.

Results

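WNT signalling genes were examined in HT1080 cells labelled as a knockout of the lysine deacetylase KDAC8, as the set of ligands, receptors, inhibitors, cytoplasmic regulators and transcription factors through which the pathway works. Members were chosen by gene name: every WNT ligand and frizzled (FZD) receptor row of the deposited count table and 26 further named genes. This gave 55 genes of 60675 rows, each with 1 row and each annotated as protein-coding. HT1080 is a human fibrosarcoma line, of connective tissue origin per the labels, that carries an activated NRAS allele. The series holds 1 group of 4 replicate libraries, all with the genotype KDAC8 knockout, made from total RNA of frozen pellets after ribosomal RNA removal. No treatment or time point is given, and no library of unmodified HT1080 cells was analysed here. The labels do not say whether the knockout cells were 1 clone or a pool, or whether the replicates were separate cultures. The p-values below therefore describe how these 4 samples differ, and that spread may be technical.

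WNT proteins are secreted lipid-modified ligands that bind frizzled receptors together with the co-receptors LRP5 or LRP6. Without a ligand, a destruction complex built on AXIN and APC lets the kinases GSK3 and CK1 mark beta-catenin for degradation, while with a ligand beta-catenin builds up and joins TCF/LEF factors on DNA. WNT5A and related ligands are best known for signalling without beta-catenin, and in connective tissue cells they are linked to migration and cell polarity. Levels below are CPM, expected counts scaled to the effective library size, with the SD over the 4 libraries (n = 4). Values are given in the order of replicates 1 to 4. CPM is not divided by length, so genes are compared with one another only in CPM per kilobase of annotated exon. Detected genes are those that reach 1 CPM in each of the 4 libraries. A gene was said to vary when a chi-square test of homogeneity between the 4 libraries passed 0.05 after Benjamini-Hochberg adjustment across every gene with a mean of at least 10 counts. As in any bulk RNA, fewer cells with a transcript and less of it per cell cannot be told apart.

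Libraries held 39454210 to 45828807 counts. For a gene without counts, 1 library allows up to 0.0662 to 0.0742 CPM (3 counts) and all 4 together up to 0.0176 CPM, for counting error only. HDAC8, the gene of KDAC8, had 80, 89, 95 and 107 counts (2.18 ± 0.242 CPM), which counts the whole gene and does not by itself check the label. The mesenchymal markers VIM, FN1 and CD44 stood at 633 CPM or more on average, the epithelial genes EPCAM, CDH1 and KRT5 had 0 counts in every library, and PECAM1, CDH5 and PTPRC were under 0.03 CPM.

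In all, 26 of the 55 WNT genes (47.3%) were detected. The share was 21.4% over all rows and 58.8% over protein-coding rows. A further 10 members had 0 counts in every library. The other 19 had some counts but stayed below the threshold in every library. The detected members had a median of 23.7 CPM and 4.73 CPM per kilobase, beside 32.9 CPM and 6.32 CPM per kilobase for all detected protein-coding rows.

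**Figure D1:**
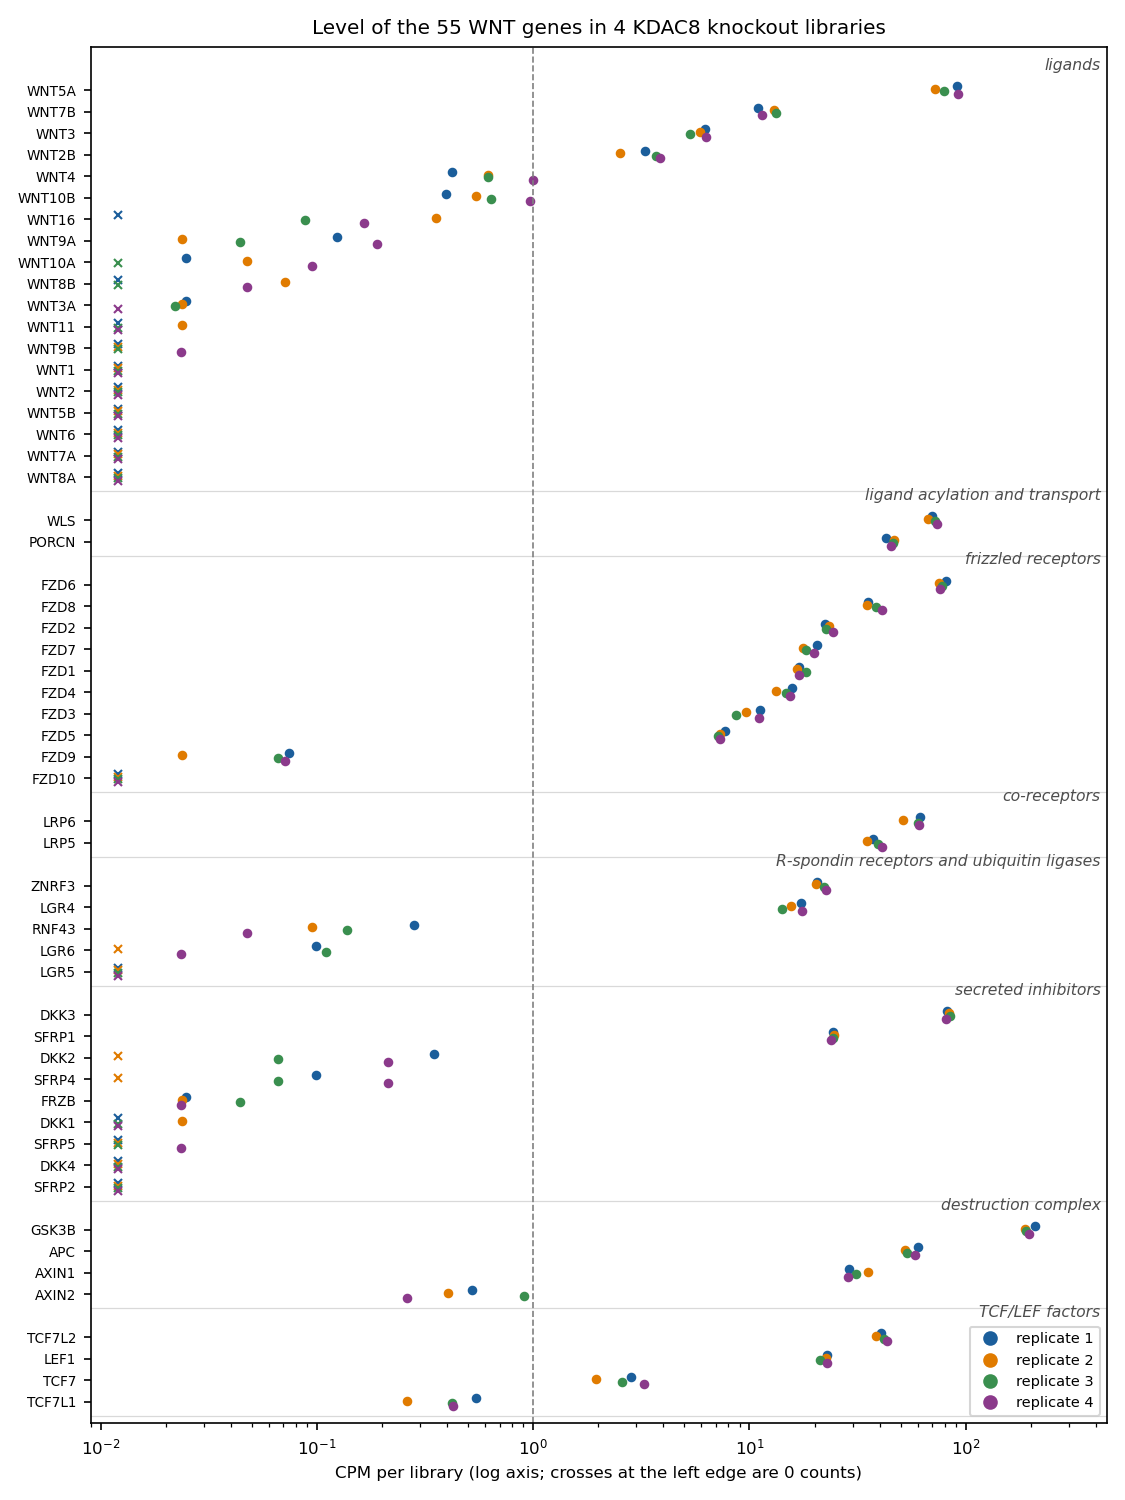
Level of each of the 55 WNT genes in CPM (log axis), 1 point per library, grouped by role; crosses at the left edge mark 0 counts and the dashed line the detection threshold of 1 CPM. The 26 detected genes lie to the right of the line in all 4 libraries. The other genes, 15 of the 19 ligands among them, lie to its left in all 4.

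Among the 19 ligands, WNT5A stood far above the rest per kilobase. WNT5A (ENSG00000114251, chromosome 3, 55465715 to 55490539, GRCh38, reverse strand) had 91.5, 72.2, 79.4 and 91.9 CPM, a mean of 83.7 ± 9.67 CPM. Replicates 1 and 4 were high and replicate 2 was lowest, a range of 1.27 times that passed the chi-square test (adjusted p = 4.83e-29). Per kilobase WNT5A stood at 11.3 ± 1.31 CPM, above 71.6% of detected genes. The antisense row WNT5A-AS1, which shares no annotated exon with it, had 1.49 ± 0.126 CPM.

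Only 3 other ligands were detected. WNT7B had 10.9, 12.9, 13.3 and 11.4 CPM, high in replicates 2 and 3, where WNT5A was low (adjusted p = 0.00568, chi-square test). The call was lost without replicate 1 and with expectations rescaled by GC content. WNT3, a ligand of the beta-catenin branch, had 6.21, 5.89, 5.30 and 6.32 CPM, with no variation beyond counting noise detectable (adjusted p = 0.258). WNT2B had 3.28, 2.53, 3.68 and 3.85 CPM, lowest in replicate 2, and ranged 1.52 times (adjusted p = 0.00947). WNT2B overlaps 2661 exonic bases of ST7L on the opposite strand, a gene at 16.1 CPM, and strand use in counting is not stated, so its level is uncertain.

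Scaled by length, WNT5A made up 71.3% ± 3.06 of the summed ligand level, between 67.7% in replicate 2 and 74.9% in replicate 1. WNT7B gave 15.3% ± 2.55, WNT3 8.64% ± 0.602 and WNT2B 1.67% ± 0.227. Neighbours among the detected ligands, in the order WNT5A, WNT7B, WNT3 and WNT2B, had ranges that did not overlap in CPM per kilobase. WNT10B, below the threshold in CPM, gave 1.52% ± 0.507, and its range per kilobase overlapped that of WNT2B. The threshold is not scaled by length, and WNT2B has 12561 exonic bases against 2629 for WNT10B. With the longest annotated transcript as the length, WNT5A gave 70.1% ± 3.12.

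The remaining 15 ligands were below the detection threshold. WNT4 (0.42, 0.62, 0.62 and 0.99 CPM) and WNT10B (0.40, 0.55, 0.64 and 0.97 CPM) were nearest to it. Both were highest in replicate 4 and lowest in replicate 1, with ranges of 2.36 and 2.45 times, and both varied (adjusted p = 0.0240 and 0.0178, chi-square test), but neither did without replicate 1 or without replicate 4. These are low values, of 113 and 109 counts over the 4 libraries. WNT16 had 0, 15, 4 and 7 counts, too few to test. WNT9A, WNT10A, WNT8B, WNT3A, WNT11 and WNT9B had 1 to 16 counts over all libraries, and WNT1, WNT2, WNT5B, WNT6, WNT7A and WNT8A had 0.

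The paralogs WNT5A and WNT5B had 14219 and 0 counts over the 4 libraries. The sequence around their annotated start sites is shown because it differs in the density of CG pairs, the sites of DNA methylation. RefSeq (GRCh38.p14) lists 2 start windows for each gene, from 250 bases before to 50 after the start. The window with the higher observed over expected CG ratio, picked after these values were seen, is printed for each gene 5′ to 3′ with every CG in capitals. WNT5A, at chr3:55487257-55487556 on the reverse strand, holds 21 CG pairs, a ratio of 0.884, and WNT5B, at chr12:1616806-1617105 on the forward strand, holds 10, a ratio of 0.5. The other window of WNT5A holds 22 pairs, a ratio of 0.8, and that of WNT5B 7, a ratio of 0.352. The other ligands with 0 counts and a window had ratios of 1.12 (WNT2), 0.864 (WNT6), 0.834 (WNT7A), 0.766 (WNT1) and 0.179 (WNT8A). DNA methylation was not measured in these libraries, and a link between CG density and the counts was not tested.
WNT5A: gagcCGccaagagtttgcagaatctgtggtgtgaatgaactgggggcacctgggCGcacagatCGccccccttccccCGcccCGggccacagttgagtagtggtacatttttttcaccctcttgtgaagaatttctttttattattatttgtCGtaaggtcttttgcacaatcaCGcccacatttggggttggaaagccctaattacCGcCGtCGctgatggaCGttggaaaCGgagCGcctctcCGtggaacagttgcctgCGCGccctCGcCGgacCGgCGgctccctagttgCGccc
WNT5B: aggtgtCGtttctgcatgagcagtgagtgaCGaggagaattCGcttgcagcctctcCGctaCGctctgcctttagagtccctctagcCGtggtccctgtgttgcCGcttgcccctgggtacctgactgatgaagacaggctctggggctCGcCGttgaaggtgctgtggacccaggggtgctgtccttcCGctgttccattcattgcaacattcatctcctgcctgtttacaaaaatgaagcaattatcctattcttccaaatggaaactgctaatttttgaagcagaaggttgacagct

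The genes that lipid-modify and export WNT proteins were both well expressed. PORCN, the endoplasmic reticulum enzyme that attaches the lipid, had 43.0, 46.4, 45.9 and 45.3 CPM, and no variation between libraries was detectable (adjusted p = 0.144, chi-square test). WLS, the carrier that takes the lipidated ligand to the cell surface, had 69.6, 66.7, 71.8 and 73.4 CPM, a range of 1.10 times that passed the test (adjusted p = 0.0031). Per kilobase they stood at 15 ± 0.502 and 15.7 ± 0.659 CPM. Their ranges overlapped, and WLS was higher in 3 of 4 libraries. With the longest transcript as length they stood at 21.4 ± 0.716 and 25.6 ± 1.07, the ranges did not overlap and WLS was higher in 4 of 4.

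Of the 10 frizzled receptors, 8 were detected. FZD6 (ENSG00000164930, chromosome 8, 103298433 to 103332866, GRCh38, forward strand) was highest per kilobase, with 81.1, 75.2, 77.6 and 76.1 CPM. Its level per kilobase, 19.1 ± 0.639 CPM, lay above 83.9% of detected genes. FZD6 is known for planar cell polarity, the alignment of cells within a sheet.

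FZD2 and FZD8 came next per kilobase, at 11.0 ± 0.454 and 9.26 ± 0.711 CPM. FZD2 had 22.3, 23.4, 22.5 and 24.4 CPM in the 4 libraries and FZD8 had 35.2, 34.8, 38.3 and 40.9 CPM. FZD8 was high in replicates 3 and 4 (adjusted p = 1.5e-05, chi-square test), and FZD2 was not called varying (adjusted p = 0.225). FZD7, of the same subfamily as FZD1 and FZD2, had 20.5, 17.6, 18.3 and 19.9 CPM and was lowest in replicate 2 (adjusted p = 0.0166).

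The other detected frizzleds were lower per kilobase. FZD1 stood at 2.47 ± 0.107 CPM per kilobase, FZD4 at 2.01 ± 0.15, FZD5 at 1.10 ± 0.033 and FZD3 at 0.736 ± 0.0892. FZD1 had 17.0, 16.6, 18.3 and 16.9 CPM and FZD5 7.69, 7.34, 7.17 and 7.31 CPM, neither called varying (adjusted p = 0.297 and 0.863, chi-square test). FZD3 had 11.2, 9.59, 8.68 and 11.1 CPM. It was high in replicates 1 and 4 and low in replicates 2 and 3, a range of 1.29 times, the widest of the 8 detected frizzleds (adjusted p = 0.000619, chi-square test), and the call was lost without replicate 3. FZD4, best known as the receptor of norrin in retinal vessels, had 15.8, 13.3, 14.7 and 15.4 CPM, lowest in replicate 2 (adjusted p = 0.0279). It shares 1399 exonic bases with PRSS23 on the opposite strand, a gene at 345 CPM, so its count is uncertain. FZD9 had 10 counts over the 4 libraries and FZD10 had 0.

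The length-scaled order of the detected frizzleds was FZD6, FZD2, FZD8, FZD7, FZD1, FZD4, FZD5 and FZD3. In all 7 steps down this order the neighbours had ranges that did not overlap. The order was the same with the longest transcript, but only FZD6 and FZD3 have another length there, so the rest could not be reordered. Without length scaling FZD8 (37.3 CPM) stood above FZD2 (23.2 CPM), and FZD3 (10.1 CPM) above FZD5 (7.38 CPM). FZD6 gave 37.7% ± 1.26 of the summed frizzled level per kilobase, FZD2 21.7% ± 0.932 and FZD8 18.3% ± 1.10. In the FZD1, FZD2 and FZD7 subfamily, FZD2 exceeded FZD7 by 1.15 ± 0.12 and FZD1 lay at -1.0 ± 0.12 relative to FZD7, as log2 ratios per kilobase within a library. Each direction held in 4 of 4 libraries. Without length scaling these ratios were 0.28 and -0.15, so their size rests largely on the annotated lengths.

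The co-receptors LRP6 and LRP5 stood close to each other per kilobase. LRP6 had 61.3, 51.5, 60.2 and 60.6 CPM, and replicate 2 stood apart as the low library (adjusted p = 2.32e-09, chi-square test). LRP5 had 37.3, 35.1, 39.4 and 41.0 CPM (adjusted p = 0.000216). Per kilobase LRP5 (6.20 ± 0.415) and LRP6 (5.65 ± 0.450) overlapped in range. With the longest transcript as length they stood at 7.41 ± 0.496 and 5.83 ± 0.464, and the ranges did not overlap. The log2 ratio of LRP6 to LRP5 per kilobase was -0.13 ± 0.07, with LRP5 higher in 4 of 4 libraries. With the longest transcript it was -0.35, and without length scaling it was 0.61.

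Receptor turnover genes split by paralog. The transmembrane ubiquitin ligases ZNRF3 and RNF43 remove frizzleds from the cell surface, and LGR receptors bind R-spondins, which block those ligases. ZNRF3 had 20.6, 20.2, 22.2 and 22.6 CPM, and no variation was detectable (adjusted p = 0.0785, chi-square test). Its antisense row ZNRF3-AS1, which shares no annotated exon with it, had 0.22, 0.48, 0.45 and 0.93 CPM and varied (adjusted p = 0.000323). RNF43 had 0.28, 0.09, 0.14 and 0.05 CPM, 23 counts in all, and it overlaps exons of SUPT4H1 and of the antisense row BZRAP1-AS1. The log2 ratio of ZNRF3 to RNF43 per kilobase was 7.65 ± 1.11, and ZNRF3 was the higher gene in 4 of 4 libraries. LGR4 had 17.3, 15.5, 14.2 and 17.4 CPM, high in replicates 1 and 4 (adjusted p = 0.000522), and the call was lost without replicate 3. LGR5, known as a marker of intestinal stem cells, had 0 counts in every library, and LGR6 had 10 counts in all.

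Of the 9 genes grouped here as secreted inhibitors by family, DKK3 and SFRP1 were detected. Whether DKK3 inhibits WNT signalling was not tested. DKK3 (ENSG00000050165, chromosome 11, 11963106 to 12009769, GRCh38, reverse strand), the divergent member of the dickkopf family, had 82.0, 83.3, 84.8 and 81.1 CPM. Its level per kilobase was 16.4 ± 0.316 CPM, above 80.5% of detected genes, and 31.2 ± 0.604 with the longest transcript as length. SFRP1, a soluble frizzled-like decoy, had 24.3, 24.6, 24.4 and 23.8 CPM. Both were steady, with ranges of 1.05 and 1.03 times and no variation beyond counting noise detectable (adjusted p = 0.321 and 0.901, chi-square test).

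The other 7 inhibitors were near 0. DKK1, which blocks LRP5 and LRP6 and is itself a target of beta-catenin, had 1 count, in replicate 2, against 14092 for DKK3 over the 4 libraries. SFRP5 also had 1 count, FRZB 5, SFRP4 16 and DKK2 26. DKK2 counts were 14, 0, 3 and 9, too few to test. DKK4 and SFRP2 had 0 counts.

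Among the 4 members in the destruction complex GSK3B stood highest per kilobase. The CK1 gene CSNK1A1, which is no member, stood higher, at 43.8 ± 2.47 CPM per kilobase. GSK3B (ENSG00000082701, chromosome 3, 119821323 to 120094417, GRCh38, reverse strand), a kinase that marks beta-catenin, had 210.0, 187, 189.8 and 196 CPM. Per kilobase GSK3B stood at 24.0 ± 1.26 CPM, above 87.7% of detected genes. APC had 60.3, 52.5, 53.2 and 58.5 CPM. The scaffold AXIN1 had 29, 35.5, 31.0 and 28.4 CPM. All 3 varied (chi-square test), with ranges of 1.12, 1.15 and 1.25 times. GSK3B was high in replicate 1, APC in replicates 1 and 4, and AXIN1 in replicate 2, the library in which APC and GSK3B were lowest. Per kilobase APC (4.51 ± 0.311) and AXIN1 (4.14 ± 0.428) overlapped. The log2 ratio of GSK3B to its paralog GSK3A per kilobase was 0.58 ± 0.12, and GSK3B was higher in 4 of 4 libraries.

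AXIN2, the inducible paralog of AXIN1 and the most used readout of beta-catenin signalling, was low in every library. AXIN2 (ENSG00000168646, chromosome 17, 65528563 to 65561647, GRCh38, reverse strand) had 21, 17, 41 and 11 counts, or 0.52, 0.40, 0.91 and 0.26 CPM. Replicate 3 was highest and replicate 4 lowest, a range of 3.48 times that passed the test (adjusted p = 0.00069, chi-square test). Without replicate 3 it was no longer called. The log2 ratio of AXIN1 to AXIN2 per kilobase was 5.51 ± 0.74, a 45.7-fold difference, with AXIN1 higher in 4 of 4 libraries.

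The TCF/LEF factors that bring beta-catenin to DNA were led by TCF7L2 and LEF1. TCF7L2 had 40.5, 38.3, 41.8 and 43.4 CPM (adjusted p = 0.00624, chi-square test) and LEF1 had 22.8, 22.7, 21.3 and 22.9 CPM (adjusted p = 0.401). They stood at 6.09 ± 0.316 and 4.18 ± 0.141 CPM per kilobase, with ranges that did not overlap, and made up 57.3% ± 1.39 and 39.3% ± 1.72 of the summed level of the 4 factors. With the longest transcript as length they stood at 9.92 ± 0.515 and 6.44 ± 0.217. TCF7 had 2.84, 1.95, 2.58 and 3.26 CPM, lowest in replicate 2 and highest in replicate 4, a range of 1.68 times (adjusted p = 0.00515). TCF7 overlaps 210 exonic bases of SKP1 on the opposite strand, which stood at 141 CPM, so the level of TCF7 is uncertain. TCF7L1, known mainly as a repressor, had 0.54, 0.26, 0.42 and 0.43 CPM, and the log2 ratio of TCF7L2 to TCF7L1 per kilobase was 6.07 ± 0.40. The other rows that share exonic bases with a WNT gene, or carry its name, had means under 1 CPM, such as BAALC-AS1 beside FZD6 (0.877 ± 0.0507 CPM) and GNG12-AS1 beside WLS (0.342 ± 0.139 CPM).

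**Figure D2:**
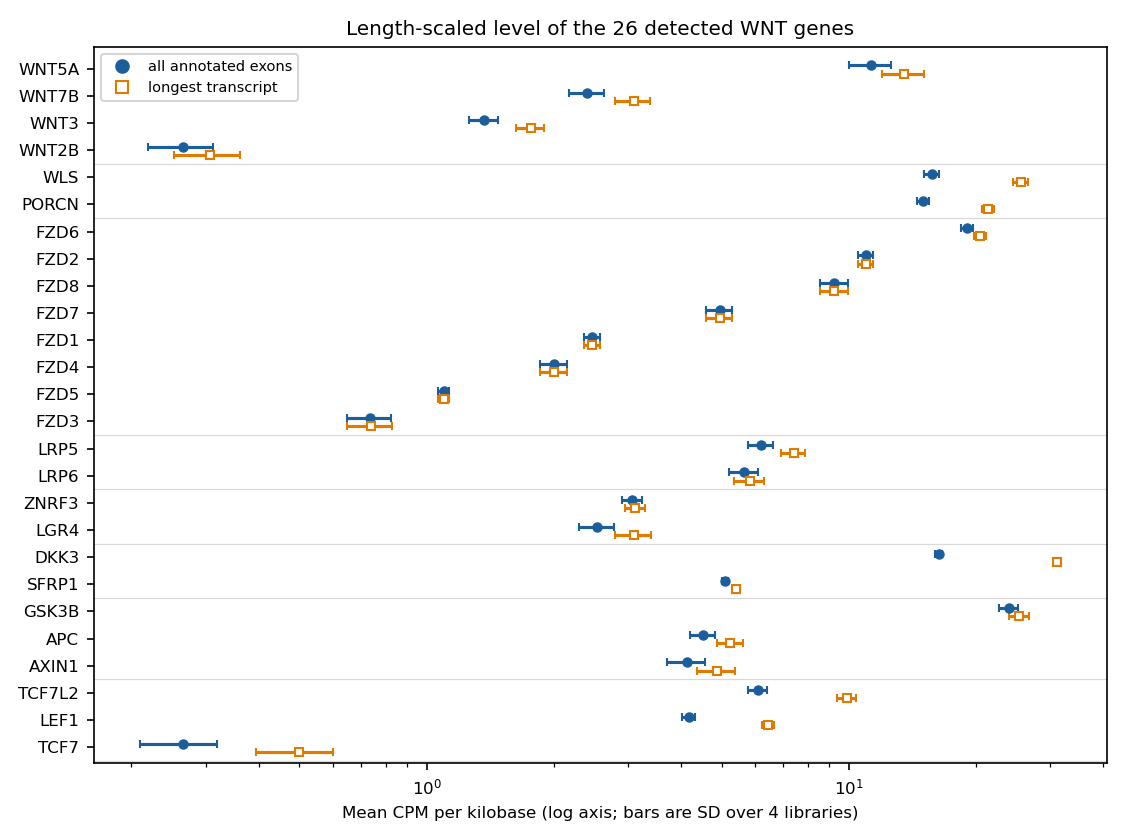
Mean level per kilobase (log axis) of the 26 detected WNT genes, grouped by role in the order of the text and sorted within a role; circles use all annotated exons, squares the longest annotated transcript, and bars are SD over 4 libraries. GSK3B, FZD6, DKK3, WLS and PORCN are the 5 highest by either length, while FZD3, WNT2B and TCF7 stand under 1.

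Within-library comparisons were made for 8 pairs of related genes, and in each the direction was the same in 4 of 4 libraries. In an exact permutation of the signs, two-sided, 2 of 16 sign patterns were as extreme as the data for each pair. That share is the smallest p possible with 4 libraries, and adjustment over the 8 pairs leaves it unchanged, so 0.05 is out of reach here. The pairs WNT5A and WNT5B, DKK1 and DKK3, and LGR4 and LGR5 were not tested because 1 gene of each lacked counts in some library.

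Genes known to be raised by beta-catenin and TCF, some of them in particular tissues, were mostly low or at 0. Of a list of 15, 7 of them WNT genes described above, 6 were detected, beside 58.8% of protein-coding rows. The list is short, and a difference from that share was not tested. CCND1 (753.6 ± 10.9 CPM) and MYC (104 ± 10.2 CPM), which growth signals such as RAS and MAPK also drive, stood highest per kilobase, at 156 ± 2.27 and 34.8 ± 3.38. LEF1, ZNRF3, TCF7 and TNFRSF19 (2.59 ± 0.297 CPM) were the others. NKD1, an inhibitor of dishevelled, stood at the threshold with 0.96, 0.88, 1.04 and 1.16 CPM. The remaining 8 had means under 1 CPM: AXIN2, RNF43, NOTUM (0.0934 ± 0.035 CPM), DKK1, LGR5, SP5, APCDD1 and ASCL2, the last 3 with 0 counts in every library.

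**Figure D3:**
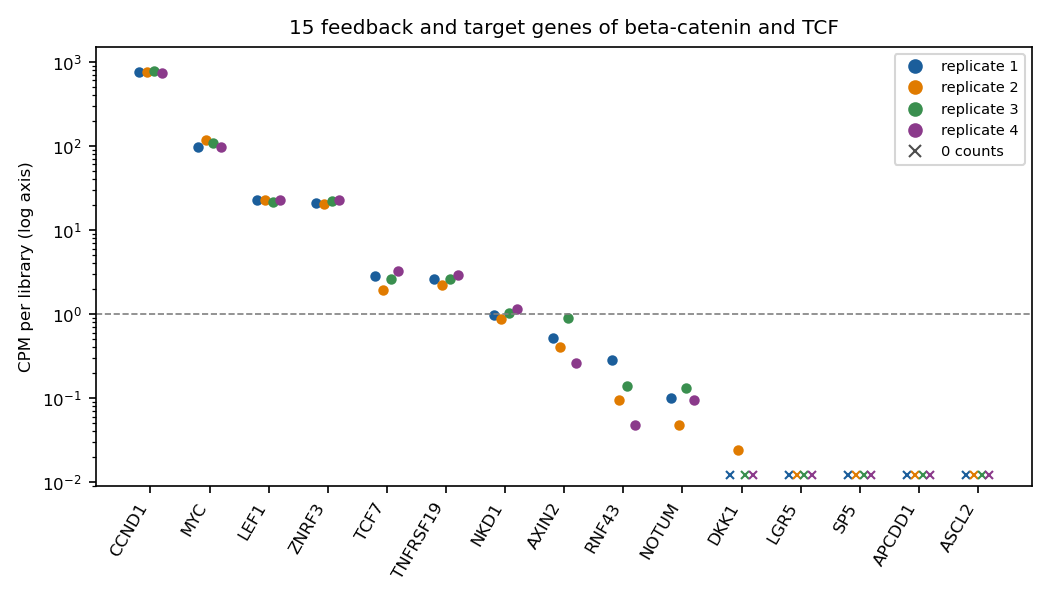
CPM per library (log axis) of 15 feedback and target genes of beta-catenin and TCF, sorted by mean; crosses are 0 counts and the dashed line is 1 CPM. CCND1, MYC, LEF1, ZNRF3, TCF7 and TNFRSF19 lie above the line in all 4 libraries, and LGR5, SP5, APCDD1 and ASCL2 are at 0 in all 4.

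The start windows of WNT genes were searched for the core letters that TCF/LEF factors bind, on both strands and with overlapping matches counted separately: the letters CTTTGAA or the variant CTTTGAT, and likewise the letters CTTTGTA or the variant CTTTGTT. RefSeq windows were matched for 39 of the 55 genes, 51 windows in all. AXIN2, DKK2, DKK3, DKK4, FZD2, FZD3, FZD6, FZD7, FZD10, LGR5, LRP6, SFRP1, WNT7B, WNT10B, WNT11 and ZNRF3 had none in the table. The letters stood in 4 member windows (7.84%), beside 13.8% of all 35116 windows and 9.34% of windows of detected protein-coding genes. The 4 were DKK1, WNT3, the second of 2 windows of TCF7 and the second of 3 windows of TCF7L2. DKK1 was the only member with 2 matches, which 1.58% of all windows had. They began 95 and 76 bases before its start. A match describes these letters only and is not a binding site by itself. The 4 windows are printed 5′ to 3′ with the matched letters in capitals, since they set DKK1, with its single count, beside 3 detected genes. Their positions in GRCh38.p14 are chr10:52314031-52314330 (DKK1, forward strand), chr17:46818643-46818942 (WNT3, reverse strand), chr5:134123368-134123667 (TCF7, forward strand) and chr10:113126383-113126682 (TCF7L2, forward strand).
DKK1: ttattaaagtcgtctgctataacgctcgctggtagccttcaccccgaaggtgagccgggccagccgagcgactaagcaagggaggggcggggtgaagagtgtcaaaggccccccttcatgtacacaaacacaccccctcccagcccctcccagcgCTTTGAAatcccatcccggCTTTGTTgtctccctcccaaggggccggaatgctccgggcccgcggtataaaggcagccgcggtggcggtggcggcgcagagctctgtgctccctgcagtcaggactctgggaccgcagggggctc
WNT3: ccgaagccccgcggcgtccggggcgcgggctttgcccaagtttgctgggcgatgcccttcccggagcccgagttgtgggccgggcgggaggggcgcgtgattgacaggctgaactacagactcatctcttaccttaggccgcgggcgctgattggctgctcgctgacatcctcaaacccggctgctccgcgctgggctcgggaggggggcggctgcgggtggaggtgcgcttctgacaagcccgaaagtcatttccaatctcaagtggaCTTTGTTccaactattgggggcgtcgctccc
TCF7: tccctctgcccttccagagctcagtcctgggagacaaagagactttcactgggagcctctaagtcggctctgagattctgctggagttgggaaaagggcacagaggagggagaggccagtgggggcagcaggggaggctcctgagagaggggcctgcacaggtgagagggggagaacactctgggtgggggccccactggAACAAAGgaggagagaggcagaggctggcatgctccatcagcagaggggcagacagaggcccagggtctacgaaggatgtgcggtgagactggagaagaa
TCF7L2: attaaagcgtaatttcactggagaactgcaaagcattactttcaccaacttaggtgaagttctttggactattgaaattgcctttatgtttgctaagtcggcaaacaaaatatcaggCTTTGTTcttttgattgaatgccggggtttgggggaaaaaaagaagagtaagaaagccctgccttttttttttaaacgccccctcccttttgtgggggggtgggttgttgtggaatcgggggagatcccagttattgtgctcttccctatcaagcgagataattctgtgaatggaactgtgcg

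CG density was compared between start windows of detected and other WNT genes. The median observed over expected CG ratio was 0.776 over 25 windows of detected members and 0.672 over 26 windows of members not detected. For all protein-coding genes in the same table the medians were 0.821 for detected and 0.386 for not detected genes. These are descriptions, since windows of 1 gene are not independent. Median GC content was 65.7% and 65.0% in the member windows and 65.0% and 57.0% in those of all protein-coding genes.

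**Figure D4:**
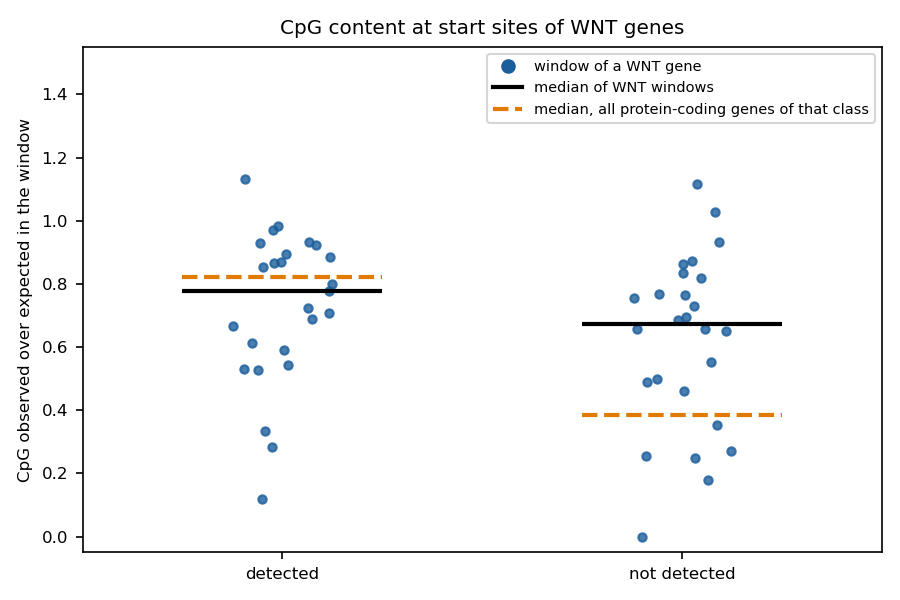
Observed over expected CG ratio in RefSeq start windows of WNT genes, by whether the gene was detected; points are windows spread sideways at random, black lines their medians and dashed lines the medians of all protein-coding genes of that class. The black line of the WNT genes not detected, at 0.672, lies above the dashed line at 0.386.

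Beyond the members, 69 other pathway genes were examined, and 45 were detected (65.2%), beside the 58.8% of protein-coding rows. In the cytoplasm 19 of 23 genes were detected, led per kilobase by the kinase CSNK1A1 (43.8 ± 2.47) and by CTNNB1, the gene of beta-catenin (38.6 ± 0.876), whose CPM was 463, 473, 459 and 448. With the longest transcript as length that order changed, to CTNNB1 (94.3 ± 2.14), CSNK1E (58.7 ± 4.60) and CSNK1A1 (55.7 ± 3.15). Of the nuclear cofactors 10 of 11 were detected, led by BCL9L (15 ± 0.52), which docks on beta-catenin, and the corepressor CTBP1 (14.1 ± 1.33), an order that reversed with the longest transcript, to 15.7 ± 0.544 and 27.8 ± 2.61. Of the planar polarity genes 8 of 9 were detected, led by the cadherin CELSR1 (9.17 ± 0.703) and VANGL1 (5.10 ± 0.536). Among the alternative receptors RYK (14.9 ± 0.252) and PTK7 (3.17 ± 0.279) led, at 22.7 ± 0.385 and 5.42 ± 0.477 with the longest transcript. ROR2 had 0.0979 ± 0.0736 CPM and its paralog ROR1 11.9 ± 0.504 CPM.

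Of the extracellular regulators 2 of 17 were detected, TRABD2A (0.970 ± 0.0639 CPM per kilobase, or 2.18 ± 0.144 with the longest transcript), a protease that cleaves WNT proteins, and KREMEN1 (0.788 ± 0.0532), a DKK receptor. WIF1, CER1, SOST, APCDD1 and GPC3 had 0 counts, and RSPO1, RSPO2, RSPO3, RSPO4, NDP, NOTUM, SOSTDC1, KREMEN2, TRABD2B and GPC4 had means under 1 CPM. RSPO3, the R-spondin with the highest level per kilobase, had 0.99, 0.59, 0.95 and 0.69 CPM. DACT1, DACT3, NKD2, TLE2, VANGL2, SP5 and ASCL2 were also under 1 CPM on average.

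Variation between libraries was common and small. Of the 55 WNT genes, 30 were tested and 20 varied (66.7%), beside 59.2% of all genes tested. Of the 26 detected members 17 varied (65.4%), beside 67.3% of all detected rows, so the members' share was near the background in either count. By role, 5 of 6 tested ligands varied, 5 of 8 frizzleds, 4 of 4 destruction complex genes, 2 of 4 TCF/LEF factors, both co-receptors and neither inhibitor. Of the other pathway genes 37 of 53 varied (69.8%), and 0 of the 5 extracellular regulators tested. The median range between the highest and lowest library was 1.16 times for the detected members and 1.17 times for all detected protein-coding rows.

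A range of at least 1.5 times was reached by 5 varying members, WNT2B, TCF7, WNT4, WNT10B and AXIN2, or 16.7% of those tested against 12.3% of all genes. Of the 26 detected members 2 did (7.69%), beside 6.58% of all detected rows. Each of the 5 had a mean under 4 CPM, and the levels of WNT2B and TCF7 are uncertain because of overlapping exons. Without replicate 4 this count fell to 1, AXIN2. In the pathway list the polarity genes DAAM2 (2.19, 1.61, 1.13 and 2.22 CPM) and VANGL2 (0.74, 0.36, 0.57 and 1.16 CPM) varied by that much (adjusted p = 0.000415 and 0.000331, chi-square test).

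Replicate 2 was the low library for many WNT genes. It was lowest for 13 of the 17 detected members that varied and for 15 of all 26, with a median deviation of -0.07 log2 units over the 26. Among all detected rows it was lowest in 26.6%. Without replicate 2, 10 of 30 tested members varied in place of 20. The calls lost were WNT2B, WLS, FZD4, FZD6, FZD7, LRP5, LRP6, AXIN1, TCF7 and TCF7L2. Without replicate 1 the calls of FZD4, FZD6 and FZD7 were also lost, and without replicate 4 those of TCF7 and TCF7L2. Over all genes the share varying was 49.3%, 47.2%, 55.2% and 46.8% without replicates 1, 2, 3 and 4 in turn, beside 59.2% with all 4.

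Gene length and library composition moved with these values, and deviations also differed by GC content. Detected protein-coding genes in the upper tercile of exonic length were lowest in replicate 2 in 41.6% of cases, with a median deviation of -0.04, and genes in the lower tercile had a median deviation of 0.10 there. The detected members had a median exonic length of 6524 bases, beside 5307.5 for all detected protein-coding rows, and the 13 varying members lowest in replicate 2 had 7383. The RNAs RN7SL1, RN7SL2, RN7SK, RPPH1 and RMRP took 8.18% of counts in replicate 2 and 5.41% to 6.82% in the others. Mitochondrially encoded genes took 1.99% in replicate 2 and 2.58% to 3.28% in the others. The part of length and composition in the members' variation was not tested, and calls with expectations rescaled by GC content are given below.

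**Figure D5:**
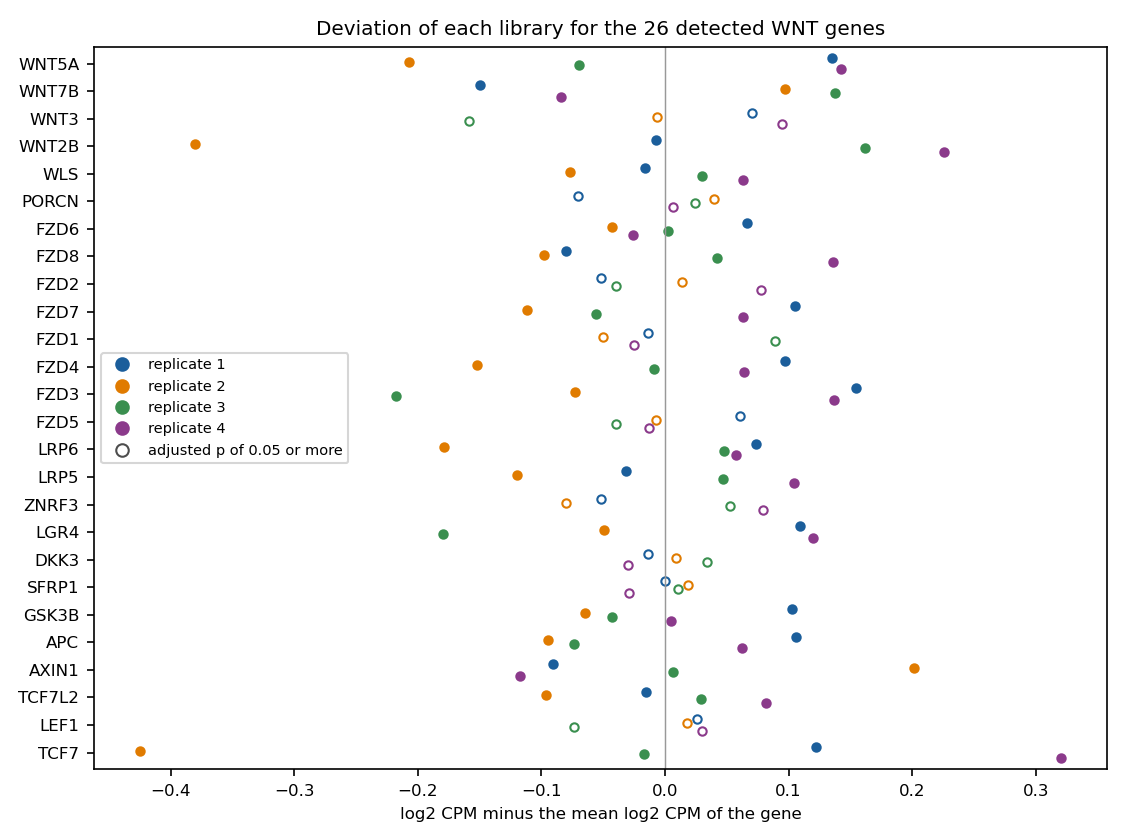
Deviation of each library from the gene's mean log2 CPM for the 26 detected WNT genes, 1 point per library; filled points are genes that varied by the chi-square test, open points those that did not. Replicate 2 lies farthest left for most filled genes, such as TCF7, WNT2B, WNT5A and LRP6, and farthest right for AXIN1, while DKK3 and SFRP1 stay close to 0.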

How the data were processed

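The values deposited by the authors are expected counts, as their column totals and fractional entries show, with no scaling across columns. The submitters' processing notes name GRCh38, RSEM 1.3.3, Bowtie2 2.5.4, Trimmomatic 0.39 and DESeq2 1.46.0 and assign them no roles. Which annotation, strand setting and filters were used is not given in the sources used here. RSEM-type counts can share a read between similar or overlapping rows.

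Counts were rounded for the chi-square tests (3 degrees of freedom, expectations in proportion to edgeR 4.0.16 TMM effective library sizes, 16790 genes). Positions and exonic lengths came from GENCODE release 29 (GRCh38), which holds all 55 members, and start windows from RefSeq. Exonic length joins all annotated exons, and levels per kilobase change with the annotation used. A pseudocount of 0.01 CPM entered deviations on the log scale, not ratios of pairs. Alternatives were DESeq2 1.42.0 size factors, total counts, other thresholds and lengths, and leaving out each library. In simulated counts, 1 library was changed in 50 genes for each fold (16789 genes tested). The test found 72% of genes with a 1.2-fold change, 70% with 1.5-fold and 94% with 2-fold. Spread beyond counting noise was not simulated, and few genes were changed, so these shares are not the power in the real data.

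All members could be named. Pathway genes named were the 2 highest per kilobase in each group, those under 1 CPM and those ranging 1.5 times or more, with the target list and GSK3A of the pairs; ROR1 and CSNK1E were added after their values were seen. FZD, LRP, WNT and other protein motifs planned for this work were not analysed here. The members and lists were chosen with earlier results of these data known.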

Additional observations from a re-analysis of the deposited data

Results flagged for a closer look

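In 2 of the 30 WNT genes with enough counts, 1 library lay far from the other 3, a gap that takes up most of the gene's range. LRP6 was at 51.5 CPM in replicate 2, against 60.2 to 61.3 CPM in the others, a gap of 0.891 of the range. LEF1 was at 21.3 CPM in replicate 3, against 22.7 to 22.9 CPM, a gap of 0.875 of the range, in a gene that did not vary beyond counting noise by the chi-square test (adjusted p = 0.401). Chance flags about 1 in 20 genes, so 2 of 30 is near that rate.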

How the results depend on the processing

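The count of 26 detected WNT genes was the same with DESeq2 size factors, total counts, protein-coding totals, a threshold of 0.5 CPM and without each library in turn. It was 25 at 2 CPM and 23 at 1 CPM per kilobase. The count of varying members was 20 or 21 under the 3 other scalings, 23 of 45 with no filter on low counts, 17 of 26 with a mean of 50 counts, and 10 to 17 when a replicate was left out. The count with a range of 1.5 times or more was 5 under DESeq2 size factors and total counts, 8 with no filter and 1 to 4 without a replicate. With no filter the chi-square test rests on very few counts. For other pathway genes the count of 37 was 30 to 33 without a replicate, 35 with total counts and 38 with DESeq2 size factors. With expectations rescaled in 10 bins of GC content, chosen after seeing the data, 19 members varied, 18 of them among the 20, and 27 of 53 pathway genes (50.9%), beside 8538 of all genes tested (50.9%). The log2 ratio of LRP6 to LRP5 reversed, to 0.61, without length scaling, as the construction of that setting implies; the other 7 pairs kept their direction. No paired analysis was possible because there is 1 group.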
